A study of Homo sapiens with 8 samples.

Results

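The genes described here are 10 components of TGF-beta and BMP signalling, taken by name: the ligands TGFB1, TGFB2, INHBA and BMP4, the receptor TGFBR2, the inhibitory SMADs SMAD6 and SMAD7, and the target genes ID1, ID2 and ID3. Each was measured on Affymetrix arrays as log2 expression, and the probe set that averaged highest over the 8 arrays stood for the gene, counting those annotated to it alone. All 10 were found, out of 19775 genes on the arrays; 22 probe sets read them, 4 genes having 1 probe set each and the other 6 having several. The arrays held 4 groups of 2 samples of established human colon cancer lines. HT29 was profiled as spheres (labelled 1st sphere), grown in DMEM-F12 with N2 and with EGF and bFGF at 10 ng/ml, and as parental cells grown with 10% fetal bovine serum. SW480 was profiled as a stable line labelled as expressing Snail and as a stable line that received the empty vector, both grown with 10% fetal bovine serum. The labels leave unsaid whether a stable line is 1 clone or a pool, and whether replicate arrays were separate cultures. P-values therefore rest on array-to-array spread that could be technical. Every sphere array also differed from every parental array in medium, so medium and sphere form cannot be told apart.

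TGF-beta family ligands bind pairs of type I and type II serine/threonine kinase receptors, which phosphorylate receptor-regulated SMADs. SMAD2 and SMAD3 carry TGF-beta and activin signals and SMAD1, SMAD5 and SMAD9 carry BMP signals, in each case with the shared partner SMAD4. SMAD6 and SMAD7 are induced by the pathway and block it, SMAD6 mainly on the BMP side and SMAD7 on both. The ID genes are classic BMP targets whose proteins sequester E proteins, a class of basic helix-loop-helix transcription factors. In the colon, BMP signals act on the differentiated cells of the upper crypt, TGF-beta restrains epithelial growth, and receptors or SMAD4 are often inactivated in colorectal cancer. Snail, the product of SNAI1, is a zinc-finger repressor that binds E-boxes and is itself a known TGF-beta target.

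RefSeq (GRCh38.p14) gave a promoter window of 250 bases before a start site for all 10 genes, 15 windows in all. They were searched on both strands for the palindromic SMAD binding element GTCTAGAC, the GC-rich SMAD element GGCGCC and the E-box CAGGTG, which do not overlap one another in letters. GTCTAGAC was in 0.182% of all 35116 windows, GGCGCC in 16.4% and CAGGTG in 17.5%, and among the members' windows each was in 1. The windows of SMAD6 and SMAD7 are shown because they held the palindrome and the E-box, in capitals. Those of TGFB1 and ID2 are shown because their changes had opposite signs in the 2 comparisons below, that of ID2 in spheres lying near the threshold. The palindrome began 12 bases before the SMAD6 start and the E-box 49 bases before one of 3 annotated SMAD7 starts, where it reads as its reverse complement. No capitals stand in the TGFB1 and ID2 windows, where none of the 3 motifs was matched. The matches describe letters and say nothing about binding.
SMAD6, chr15:66701986-66702235, plus strand: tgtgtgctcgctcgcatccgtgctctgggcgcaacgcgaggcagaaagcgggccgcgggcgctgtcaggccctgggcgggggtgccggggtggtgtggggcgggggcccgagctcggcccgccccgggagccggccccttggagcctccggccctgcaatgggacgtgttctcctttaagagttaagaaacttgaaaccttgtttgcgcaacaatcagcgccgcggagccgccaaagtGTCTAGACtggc
SMAD7, chr18:48942808-48943057, minus strand: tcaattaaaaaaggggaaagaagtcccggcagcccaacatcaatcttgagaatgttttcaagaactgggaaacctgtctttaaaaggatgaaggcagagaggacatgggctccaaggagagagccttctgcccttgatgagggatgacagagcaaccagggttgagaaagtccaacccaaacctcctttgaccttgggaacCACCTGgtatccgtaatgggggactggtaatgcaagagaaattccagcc
TGFB1, chr19:41353923-41354172, minus strand: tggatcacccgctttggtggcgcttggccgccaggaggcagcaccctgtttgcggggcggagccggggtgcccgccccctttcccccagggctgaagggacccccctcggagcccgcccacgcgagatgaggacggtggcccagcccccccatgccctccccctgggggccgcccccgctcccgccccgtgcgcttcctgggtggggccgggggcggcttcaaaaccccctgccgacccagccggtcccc
ID2, chr2:8681806-8682055, plus strand: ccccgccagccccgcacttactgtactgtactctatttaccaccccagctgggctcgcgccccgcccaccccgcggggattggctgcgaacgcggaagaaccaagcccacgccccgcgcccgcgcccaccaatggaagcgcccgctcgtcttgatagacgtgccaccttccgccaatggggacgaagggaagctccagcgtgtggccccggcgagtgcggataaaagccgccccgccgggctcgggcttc

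Array medians lay between 5.50 and 5.61 log2, and no measure of detection was used, so a value below an array's median says nothing on whether the transcript was present. The parental pair was the least alike, with 200 genes at least 2-fold apart, against 10 to 19 in the other pairs. SNAI1 stood at 6.35 ± 0.04 on the arrays labelled Snail and 6.35 ± 0.01 on the vector arrays (SD, n = 2 each), a change of 0.00 ± 0.15 log2 (limma adjusted p = 0.99). Its 1 probe set therefore does not separate these arrays, whether or not it reads the introduced construct, and they are called the arrays labelled Snail throughout. Every SW480 direction below rests on labels that this probe set does not check, and would turn if the labels of the 2 lines were exchanged. In HT29 the same SNAI1 probe set read 7.07 ± 0.20 in spheres and 6.01 ± 0.20 in parental cells, a rise of 1.07 ± 0.15 log2 (limma adjusted p = 0.00032). The sphere change minus that on the arrays labelled Snail was 1.06 ± 0.21 log2 (adjusted p = 0.0036). CDH1, the E-cadherin gene that Snail is known to repress, read 9.30 and 9.24 on the arrays labelled Snail, against 8.43 and 8.60 on the vector arrays. Of the 10 colon epithelial markers, 7 lay above the median on every array, while KRT20, LGALS4 and CDH17 lay below it on the SW480 arrays and CDH17 on the parental arrays too. Their sum was 109.06 to 109.08 log2 on the sphere arrays, against 102.6 to 104.1 on the parental arrays, and 82.1 to 82.4 on the arrays labelled Snail, against 81.0 to 82.7 on the vector arrays. Most of the rise of this sum in spheres was CDH17, which read 9.92 and 9.73 there, against 5.08 and 5.09 in parental cells. The epithelial markers did not move alike. KRT20 was also higher in spheres (12.76 and 13.17, against 11.38 and 11.36). VIL1 was lower there (8.85 and 8.81, against 9.41 and 9.80), and CDX2 overlapped (6.37 and 6.04, against 6.36 and 6.93). VIL1 was also lower on the arrays labelled Snail (5.76 and 6.13) than on the vector arrays (6.99 and 7.02). Fibroblast and mesenchymal markers (7 measured, with COL3A1 above the median on no array) summed to 44.0 to 45.0 log2 on the sphere arrays, against 39.5 to 39.7 on the parental arrays, and to 38.8 to 38.9 on the arrays labelled Snail, against 37.6 to 37.8 on the vector arrays. Most of the difference in spheres was LUM, which read 8.45 and 8.41 in spheres, against 4.65 and 4.65 in parental cells. The added BioC control averaged 10.24 log2 in spheres, against 8.59 in parental cells, and 10.20 in vector cells, so the parental arrays stood apart. The part of these markers and controls in the results was not tested, and in such bulk RNA fewer cells of a type and less RNA per cell cannot be told apart.

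In HT29 spheres the ligand TGFB1 and the inhibitory SMAD7 were higher than in parental cells and the ligand TGFB2 was lower, while BMP4, TGFBR2, SMAD6 and ID3 did not pass the test. TGFB1 was 2.79-fold higher, SMAD7 1.74-fold higher and TGFB2 4.85-fold lower (3.07-fold without parental replicate 1 and 7.66-fold without parental replicate 2). In all, 3 of the 10 genes were called higher (TGFB1, SMAD7 and INHBA) and 3 lower (TGFB2, ID1 and ID2) at a limma adjusted p under 0.05. Over all genes 31.4% were called, 12.4% higher and 19.0% lower. The median change of the 10 genes was -0.13 log2 and that of all genes 0.04. With each array centred on its median, the 2448 higher and 3752 lower genes became 3968 and 3072, the median of all genes moved up by 0.12, and the members called were 3 higher and 1 lower.

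**Figure D1:**
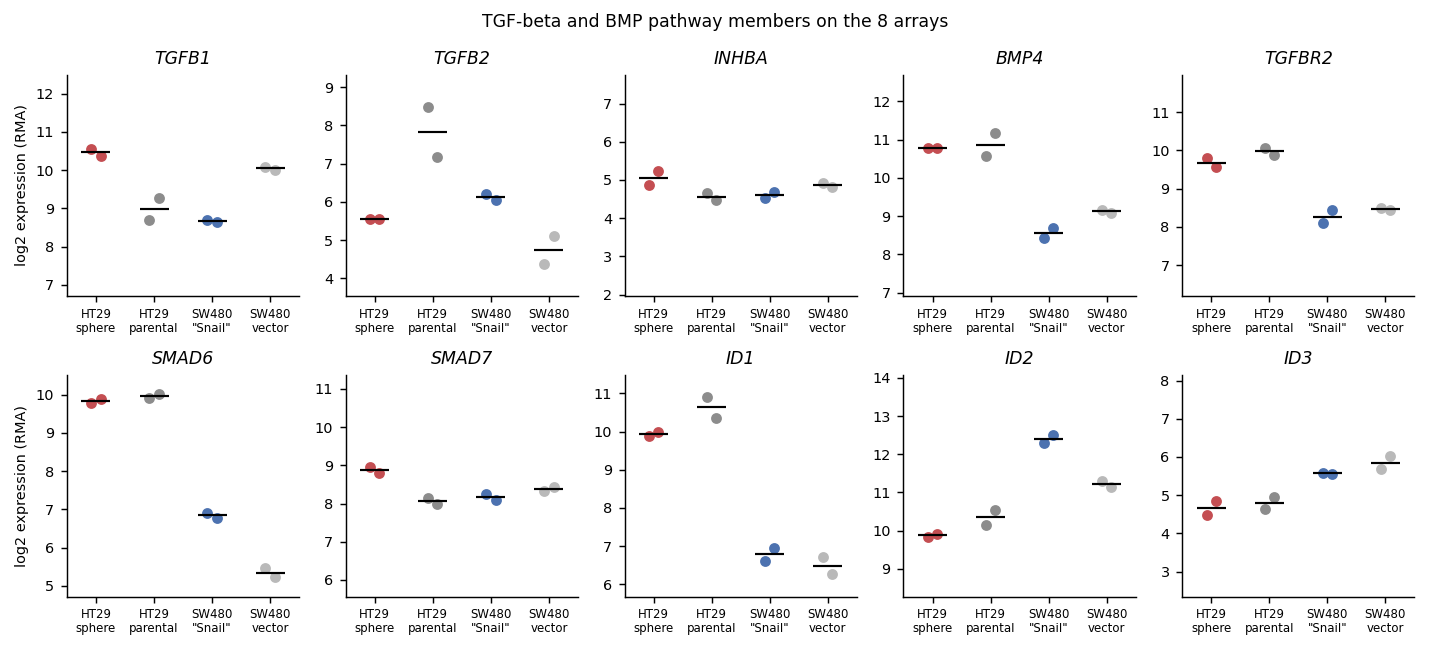
Log2 expression (y axis, RMA values, the same span of log2 units in each panel but a different range) of the 10 genes on each array (points), with the group mean (bar), in HT29 spheres, HT29 parental cells, SW480 arrays labelled Snail and SW480 vector arrays. TGFB1 is high in spheres and vector cells, SMAD6 and ID1 are high in both HT29 groups, and the parental points of TGFB2 lie furthest apart.

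Among the ligands, TGFB1, which encodes the founding TGF-beta and restrains epithelial proliferation, read 10.56 and 10.36 log2 on the sphere arrays, against 8.69 and 9.28 on the parental arrays. Both sphere values lay above both parental values, and the rise was 1.48 ± 0.18 log2 (limma, ± SE; adjusted p = 0.00015), or 0.90 with the mean of its 2 probe sets. TGFB2, a second TGF-beta isoform, read 5.55 and 5.56 in spheres, against 8.49 and 7.18 in parental cells. Its sphere values lay near the array medians (5.50 to 5.61), so the size of its fall rests on values that may be background. The sphere arrays lay close together and below both parental arrays, which stood further apart (SD 0.93), and TGFB2 fell by 2.28 ± 0.36 log2 (adjusted p = 0.00071). With the mean of its 5 probe sets the change was -1.14 (adjusted p = 0.0049). INHBA, the activin A subunit, read 4.87 and 5.24 in spheres, against 4.65 and 4.48 in parental cells. These values all lay below the array medians, and the rise of 0.49 ± 0.15 log2 (adjusted p = 0.034) was no longer called with the mean of its 3 probe sets (0.23, adjusted p = 0.24). Without parental replicate 2 or sphere replicate 2 it was also lost, at 0.40 and 0.30 log2. BMP4, a BMP ligand made by both epithelium and stroma, read 10.78 and 10.77 in spheres, against 10.58 and 11.17 in parental cells, so that the groups overlapped (-0.10 ± 0.19 log2, adjusted p = 0.73).

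The type II TGF-beta receptor TGFBR2, a tumour suppressor in colon cancer, read 9.79 and 9.56 in spheres, against 10.07 and 9.88 in parental cells (-0.30 ± 0.15 log2, adjusted p = 0.18). The inhibitory SMADs did not move alike. SMAD7, which recruits ubiquitin ligases to the type I receptor, read 8.95 and 8.79 in spheres, against 8.14 and 7.98 in parental cells. The groups did not overlap, and SMAD7 rose by 0.80 ± 0.13 log2 (adjusted p = 0.00099). SMAD6 read 9.80 and 9.89 in spheres, against 9.93 and 10.01 in parental cells, a difference of -0.12 ± 0.13 log2 (adjusted p = 0.54).

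The ID genes encode inhibitors of differentiation that lack a DNA-binding region. ID1 read 9.87 and 9.98 in spheres, against 10.90 and 10.36 in parental cells, and ID2 read 9.85 and 9.92 in spheres, against 10.16 and 10.54 in parental cells. For both, each sphere array lay below each parental array, with changes of -0.70 ± 0.21 log2 for ID1 (adjusted p = 0.025) and -0.47 ± 0.16 log2 for ID2 (adjusted p = 0.043). ID1 was not called without parental replicate 1 (-0.44, adjusted p = 0.16), without either sphere array (-0.65 and -0.76), or with arrays centred on their medians (-0.58, adjusted p = 0.054). ID2 was called under 5 of 16 alternatives and stood at -0.28 without parental replicate 2 (adjusted p = 0.22). ID3 read 4.48 and 4.85 in spheres, against 4.63 and 4.96 in parental cells, with overlapping arrays below the medians.

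On the SW480 arrays labelled Snail, SMAD6, ID2 and TGFB2 were higher and TGFB1 was lower than on the vector arrays, and 6 of the 10 genes did not pass. SMAD6 was 2.83-fold, ID2 2.26-fold and TGFB2 2.64-fold higher, and TGFB1 was 2.59-fold lower. The 3 higher and 1 lower genes compare with 16.2% of all genes called, 8.91% higher and 7.34% lower. The median change of the 10 genes was -0.20 log2 and that of all genes 0.01. Leaving out 1 SW480 array reduced the genes called over the whole array to between 1447 and 1602, against 3213 with all arrays. The 18S ribosomal RNA controls read 1.40 log2 higher on the arrays labelled Snail and the 28S controls 0.94 higher, and their part in these results was not tested.

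TGFB1 read 8.71 and 8.64 log2 on the arrays labelled Snail, against 10.07 and 10.01 on the vector arrays. Replicates lay close together in both groups, and TGFB1 fell by 1.37 ± 0.18 log2 (limma adjusted p = 0.00091). TGFB2 read 6.22 and 6.05 on the arrays labelled Snail, against 4.37 and 5.10 on the vector arrays, which lay below their medians. Its rise of 1.40 ± 0.36 log2 (adjusted p = 0.024) was lost without vector replicate 1 (1.04, adjusted p = 0.16), without either array labelled Snail (1.32 and 1.49), and with the mean of its 5 probe sets (0.71, adjusted p = 0.075). BMP4 read 8.44 and 8.69 on the arrays labelled Snail, against 9.17 and 9.07 on the vector arrays. The groups did not overlap, and the difference of -0.56 ± 0.19 log2 (adjusted p = 0.069) passed under 6 of 16 alternatives, such as each cell line fitted alone (adjusted p = 0.027). INHBA read 4.53 and 4.69 on the arrays labelled Snail, against 4.92 and 4.81 on the vector arrays (-0.26 ± 0.15 log2, adjusted p = 0.30).

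TGFBR2 read 8.09 and 8.44 on the arrays labelled Snail, against 8.49 and 8.45 on the vector arrays (-0.20 ± 0.15 log2, adjusted p = 0.44). SMAD6, which blocks BMP type I receptors and SMAD1, read 6.91 and 6.78 on the arrays labelled Snail, against 5.46 and 5.23 on the vector arrays. The vector values lay just under the array medians, and the rise was 1.50 ± 0.13 log2 (adjusted p = 0.0001). The size of that rise rests on 1 probe set: with the mean of the 4 probe sets of SMAD6 it was 0.57. SMAD7 read 8.25 and 8.10 on the arrays labelled Snail, against 8.33 and 8.42 on the vector arrays (-0.20 ± 0.13 log2, adjusted p = 0.36).

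ID2 was the only ID gene that passed, with 12.30 and 12.51 on the arrays labelled Snail, against 11.30 and 11.15 on the vector arrays. The groups were well apart, and ID2 rose by 1.18 ± 0.16 log2 (adjusted p = 0.00088). ID1 read 6.62 and 6.95 on the arrays labelled Snail, against 6.71 and 6.27 on the vector arrays, with overlap between the groups (0.30 ± 0.21 log2, adjusted p = 0.39). ID3 read 5.58 and 5.56 on the arrays labelled Snail, against 5.68 and 6.02 on the vector arrays (-0.28 ± 0.18 log2, adjusted p = 0.33).

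**Figure D2:**
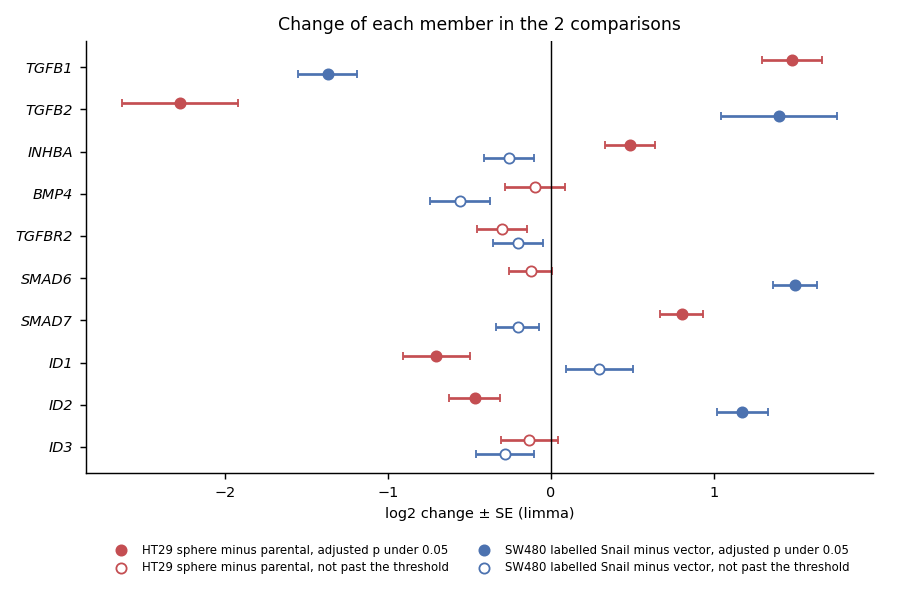
Log2 change with its limma standard error (x axis) of the 10 genes in HT29 spheres minus parental cells (red, upper of each pair) and in SW480 arrays labelled Snail minus vector (blue, lower of each pair), filled where the adjusted p was under 0.05. TGFB1 lies at 1.48 in spheres and -1.37 on the arrays labelled Snail, and TGFB2 at -2.28 and 1.40.

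The 2 comparisons share no arrays, and the difference between their changes was tested directly as the sphere change minus the change on the arrays labelled Snail. It passed for 7 of the 10 genes, against 27.5% of all genes, 10.6% with a positive and 16.9% with a negative difference. TGFB1 differed by 2.85 ± 0.26 log2 (limma adjusted p = 4.5e-05) and TGFB2 by -3.68 ± 0.50 log2 (adjusted p = 0.00046), or 1.82 and -1.84 with the mean of their probe sets. The 2 isoforms thus had opposite signs in each line, and each had opposite signs between the lines. The TGFB2 rise on the arrays labelled Snail was not called with the mean of its probe sets (0.71, adjusted p = 0.075). ID2 also had changes of opposite sign, with a difference of -1.64 ± 0.22 log2 (adjusted p = 0.0004). Its fall in spheres was called under only 5 of 16 alternatives, and not by its other probe set (-0.35, adjusted p = 0.1). SMAD6 differed by -1.62 ± 0.19 log2 (adjusted p = 0.00017) and SMAD7 by 1.00 ± 0.19 log2 (adjusted p = 0.0027): SMAD6 was called on the arrays labelled Snail alone and SMAD7 in spheres alone. With the mean of its 4 probe sets the SMAD6 difference was -0.54 (adjusted p = 0.039), and none of its other 3 probe sets passed. The differences of ID1 (-1.00, adjusted p = 0.028) and INHBA (0.74, adjusted p = 0.027) lay nearer the threshold, and that of INHBA was not called with the mean of its probe sets (0.22). BMP4, ID3 and TGFBR2 did not differ at the threshold, with differences of 0.46 ± 0.26, 0.15 ± 0.25 and -0.10 ± 0.22 log2.

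Probe sets of the same gene did not always give the same change. For TGFB2, 4 of the 5 probe sets were lower in spheres, with changes of -2.28, -1.97, -0.95 and -0.53 log2, and all 4 were called. On the arrays labelled Snail these 4 changed by 1.40, 1.12, 0.99 and 0.30 log2 in the same order. Those at 1.12 and 0.30 were not called there (limma adjusted p = 0.091 and 0.26). The remaining one, the second listed in the plot of probe sets, read 5.18 and 5.34 in spheres, against 5.28 and 5.12 in parental cells (0.06 log2, adjusted p = 0.81), and had the opposite sign on the arrays labelled Snail as well (-0.27, adjusted p = 0.28). For TGFB1 the other probe set moved the same way but less, by 0.32 log2 in spheres (adjusted p = 0.11) and -0.48 on the arrays labelled Snail, where it was called. For SMAD6 the other 3 probe sets changed by 0.43 (adjusted p = 0.054), 0.33 and 0.00 log2 on the arrays labelled Snail, and none was called. Both probe sets of ID2 rose on these arrays, by 1.18 and 1.24 log2. The files do not place the probe sets on transcripts, so which isoforms each reads is not given here.

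**Figure D3:**
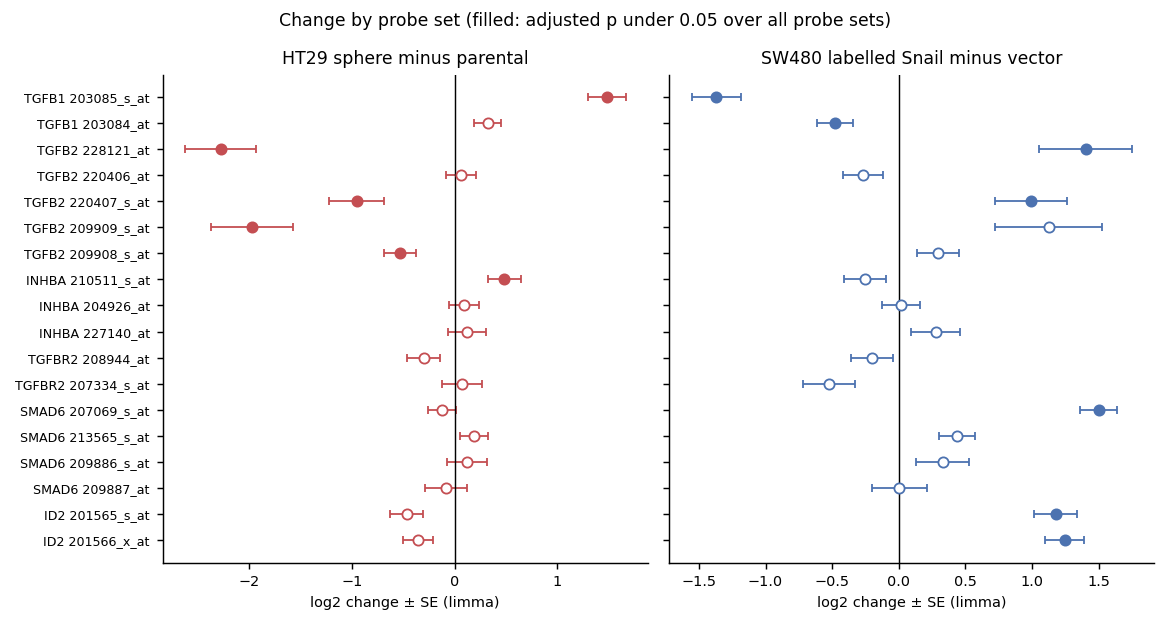
Log2 change with its limma standard error (x axis) of every probe set of the 6 genes with several, in HT29 spheres minus parental cells (left) and SW480 arrays labelled Snail minus vector (right), the probe set used for the gene listed first. Filled points passed an adjusted p of 0.05 over 41091 probe sets; all TGFB2 probe sets except the second listed lie left of 0 in spheres and right of 0 on the arrays labelled Snail.

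Between the lines in serum medium, TGFB1, ID2 and ID3 were higher in SW480 vector cells than in HT29 parental cells, and TGFB2, TGFBR2, SMAD6, BMP4 and ID1 were lower. These groups were the controls above, so this comparison shares arrays with the other 2. The 3 higher and 5 lower genes stand beside 46.1% of all genes called, 22.6% higher and 23.5% lower. The median change of the 10 genes was -0.60 log2 and that of all genes 0.07.

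SMAD6 had the widest range of group means and was 24.7-fold lower in SW480 vector cells, at 5.34 ± 0.16 log2, against 9.97 ± 0.06 in HT29 parental cells (-4.63 ± 0.13 log2, limma adjusted p = 2.3e-09). With the mean of its 4 probe sets the change was -1.51, and with the vector arrays below their medians the fold rests on values that may be background. ID1 was 17.6-fold lower, at 6.49 ± 0.31 against 10.63 ± 0.37 log2 (adjusted p = 9.8e-08), and BMP4 changed by -1.75 ± 0.19 and TGFBR2 by -1.51 ± 0.15 log2 (-0.90 with the mean of the 2 TGFBR2 probe sets). All SW480 arrays, those labelled Snail included, lay below all HT29 arrays, spheres included, for these 4 genes. ID2 and ID3 were ordered the other way: all SW480 arrays of ID2 (11.15 to 12.51 log2) lay above all HT29 arrays (9.85 to 10.54), and so did those of ID3 (5.56 to 6.02, against 4.48 to 4.96). ID2 was 0.88 ± 0.16 and ID3 1.06 ± 0.18 log2 higher in vector cells, while ID1 was lower, so the 3 ID genes did not share a direction here. The share of all genes with such an order by line was not counted, and 46.1% of all genes were called between the control groups.

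TGFB1 and TGFB2 had no such order by line. TGFB1 was 1.06 ± 0.18 log2 higher in SW480 vector cells than in HT29 parental cells (adjusted p = 0.00072). Its group means fell into a higher pair, spheres (10.46 ± 0.14) and vector cells (10.04 ± 0.04), and a lower pair, the arrays labelled Snail (8.67 ± 0.05) and parental cells (8.98 ± 0.42). TGFB2 was highest in parental cells (7.83 ± 0.93), followed by its level on the arrays labelled Snail (6.14 ± 0.12), in spheres (5.56 ± 0.00) and in vector cells (4.73 ± 0.51). SMAD7 (0.31 log2, adjusted p = 0.078) and INHBA (0.30 log2, adjusted p = 0.14) did not differ between the control groups at the threshold.

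The genes whose levels over the 8 arrays followed SMAD6 and ID1 most closely were found by the root mean square difference between centred log2 values. For SMAD6 these were RBM47, an RNA-binding protein, TMEM30B, a subunit of lipid flippases, and MACROD1, with differences of 0.207, 0.215 and 0.247 log2. RBM47 averaged 10.85 in spheres and 11.04 in parental cells, and 7.53 on the arrays labelled Snail and 6.20 on the vector arrays. For ID1 they were STEAP4, a metalloreductase, SOSTDC1, a secreted BMP and Wnt antagonist, and GALNT14, a glycosyltransferase, with differences of 0.242, 0.261 and 0.265 log2. SOSTDC1 averaged 7.83 in spheres and 8.61 in parental cells, and 4.96 on the arrays labelled Snail and 4.83 on the vector arrays. These 6 genes were picked for following SMAD6 or ID1, so their higher averages in both HT29 groups than in both SW480 groups follow from that choice.

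The rest of the pathway was read from 10 lists with 101 further genes, of which 94 were measured. In spheres 16 were higher, 21 lower and 57 not called (39.4% called, against 31.4% of all genes), with a median of 0.07 log2. On the arrays labelled Snail 18 were higher, 15 lower and 61 not called (35.1%, against 16.2%), with a median of 0.05 log2. Centring the arrays on their medians turned the sphere counts to 25 higher and 19 lower. Called genes stood on both sides in both comparisons. The lists were chosen with earlier results of these data known, so a share above that of all genes is no test of the pathway. The counts of each list below stand beside 12.4% of all genes higher and 19.0% lower in spheres. On the arrays labelled Snail these shares were 8.91% and 7.34%. The mean of a gene's probe sets in place of its brightest one reduced many of the changes below, and its value is given where it ends a call or alters the size by over 1.5 times.

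**Figure D4:**
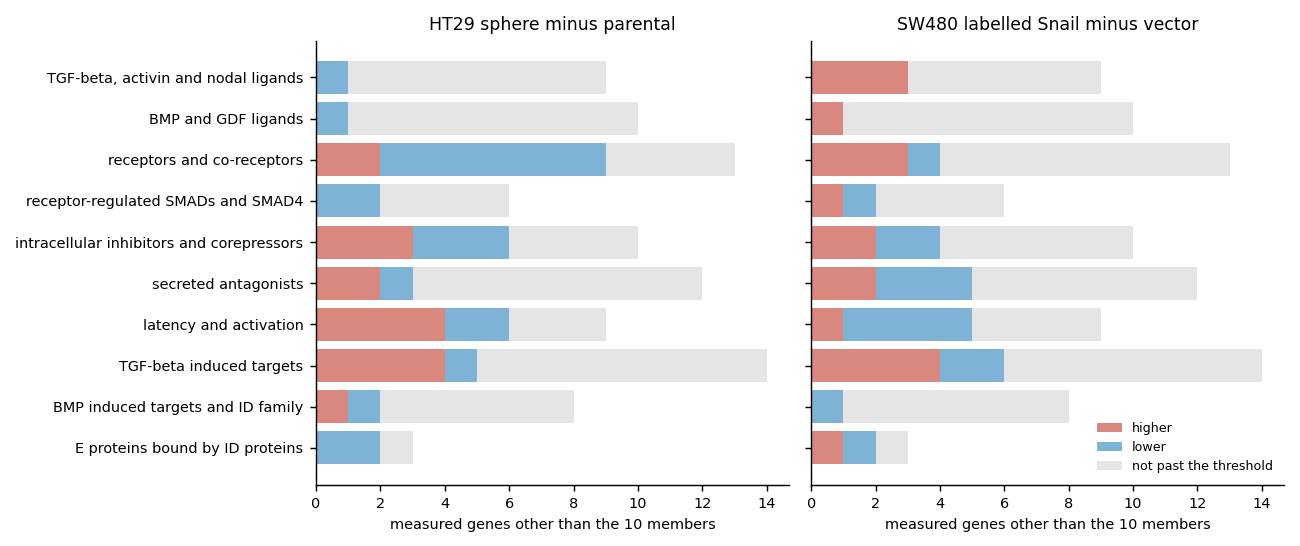
Number of measured genes other than the 10 members (x axis) that were higher (red), lower (blue) or not past an adjusted p of 0.05 (grey) in each pathway list, in HT29 spheres minus parental cells (left) and SW480 arrays labelled Snail minus vector (right). Receptors and co-receptors have 7 lower and 2 higher genes in spheres, against 1 lower and 3 higher on the arrays labelled Snail. Over all genes 19.0% were lower and 12.4% higher in spheres, and 7.34% lower and 8.91% higher on the arrays labelled Snail.

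Receptors and co-receptors had more lower than higher genes in spheres, as did all genes (19.0% lower and 12.4% higher). Of the 13 measured, 7 were lower, 2 higher and 4 not called, with a median of -0.48 log2. With the arrays centred, 6 were lower and 2 higher, and with the mean of each gene's probe sets 5 and 1. TGFBR1, the type I TGF-beta receptor, averaged 6.25 ± 0.25 log2 in spheres and 8.35 ± 0.04 in parental cells (SD, n = 2 each), a change of -2.10 ± 0.16 (limma adjusted p = 8.5e-06), although its other 2 probe sets were not called (mean of the probe sets -0.73). ACVR1, a type I receptor for BMPs and activins, averaged 10.34 ± 0.02 in spheres and 9.28 ± 0.06 in parental cells, a rise of 1.06 ± 0.12. On the arrays labelled Snail 3 of the 13 receptors were higher and 1 lower. BMPR2, the type II BMP receptor, averaged 9.24 ± 0.00 on these arrays and 8.04 ± 0.04 on the vector arrays, 1.19 ± 0.14 higher, but 1 of its other 5 probe sets was called the opposite way (-0.56) and the mean of all was 0.18 (adjusted p = 0.45). TGFBR1 was 0.80 ± 0.16 higher there (adjusted p = 0.0083), a call lost with the mean of its probe sets (0.36), without vector replicate 1 (0.62) or without either array labelled Snail. Its change in spheres minus that on the arrays labelled Snail was -2.89 ± 0.23 (adjusted p = 2.1e-05), or -1.09 with the mean of its probe sets, neither of the others being called.

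In the list headed TGF-beta, activin and nodal ligands, 1 of 9 other genes was lower in spheres, and 3 were higher on the arrays labelled Snail. GDF15, a stress-induced member of the family, fell by 1.15 ± 0.26 log2 in spheres (adjusted p = 0.0074) and rose by 2.03 ± 0.26 on the arrays labelled Snail (adjusted p = 0.00083). The mean of its 3 probe sets gave -0.60 and 0.71, and the sphere call was lost without parental replicate 1 (-0.72) or sphere replicate 1. Its averages were 9.81 in spheres and 10.96 in parental cells, and 8.84 on the arrays labelled Snail and 6.81 on the vector arrays. INHBB, the activin B subunit, averaged 7.48 ± 0.03 on the arrays labelled Snail and 5.52 ± 0.05 on the vector arrays, 1.95 ± 0.15 higher (adjusted p = 5.5e-05). The vector values, 5.56 and 5.48, lay near the array medians, so the size of this rise rests on values that may be background. Of 10 further BMP and GDF ligands, 1 was called in each comparison: BMP8B, with -0.63 ± 0.14 in spheres and 0.54 ± 0.14 on the arrays labelled Snail, the second lost without any 1 SW480 array and the first without sphere replicate 1 (-0.52) or with the mean of its 3 probe sets (-0.15).

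Of the 6 receptor-regulated SMADs and SMAD4, 2 were lower in spheres, SMAD2 (-0.69 ± 0.15) and SMAD1 (-0.66 ± 0.18), and on the arrays labelled Snail SMAD2 was higher (0.58 ± 0.15) and SMAD3 lower (-0.51 ± 0.12). SMAD4, the shared partner, averaged 5.79 ± 0.17 in spheres and 5.77 ± 0.04 in parental cells, and 5.11 ± 0.35 on the arrays labelled Snail and 4.91 ± 0.45 on the vector arrays, with neither change called. SMAD4 changed by -0.86 ± 0.22 in SW480 vector cells against HT29 parental cells (adjusted p = 0.0085), a call lost without vector replicate 1 (-0.54). All its SW480 values lay below the array medians, and its 5 probe sets ranged from -2.22 to -0.03 in that comparison. Of the calls on SMAD1, SMAD2 and SMAD3, each was lost under at least 1 alternative: SMAD2 and SMAD3 on the arrays labelled Snail without any 1 SW480 array, SMAD2 in spheres without sphere replicate 1 (-0.58), and SMAD1 in spheres without sphere replicate 1 (-0.57) or either parental array. With the mean of the probe sets SMAD2 changed by -0.21 in spheres and 0.17 on the arrays labelled Snail, and SMAD3 by -0.23 there, none called, while SMAD3 became higher in spheres (0.59, adjusted p = 0.0026, against 0.10 with its brightest probe set).

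Intracellular inhibitors and corepressors split evenly, 3 higher and 3 lower of 10 in spheres and 2 each on the arrays labelled Snail. PMEPA1, a TGF-beta induced protein that sequesters receptor-regulated SMADs, averaged 10.39 ± 0.21 log2 in spheres and 9.14 ± 0.29 in parental cells, and 9.22 ± 0.03 on the arrays labelled Snail and 10.28 ± 0.04 on the vector arrays. It rose by 1.25 ± 0.16 in spheres (adjusted p = 0.00022) and fell by 1.06 ± 0.16 on the arrays labelled Snail (adjusted p = 0.0021). SMURF1, a ubiquitin ligase for SMADs, was 0.99 ± 0.12 higher in spheres. PPM1A, a phosphatase described for SMAD2 and SMAD3, was 0.78 ± 0.12 higher on the arrays labelled Snail (0.41 with the mean of its 6 probe sets). Of 12 secreted antagonists, 2 were higher and 1 lower in spheres, and 2 higher and 3 lower on the arrays labelled Snail. FSTL3, which binds activin, changed by 1.12 ± 0.14 in spheres and -0.64 ± 0.14 on the arrays labelled Snail, the second lost without any 1 SW480 array. NBL1, a BMP antagonist, changed by 0.75 ± 0.13 in spheres and -0.75 ± 0.13 on the arrays labelled Snail.

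The list on latency and activation covers processing of the TGF-beta precursor, latency and activation, and relatives of genes with these roles. In it 6 of 9 were called in spheres (4 higher, 2 lower) and 5 of 9 on the arrays labelled Snail (1 higher, 4 lower). ITGB8, an integrin subunit that activates latent TGF-beta, rose in both, by 1.52 ± 0.16 and 1.53 ± 0.16 log2, although with the mean of its 5 probe sets the second change was 0.35 (adjusted p = 0.053). Its averages were 9.84 in spheres and 8.32 in parental cells, but 5.82 on the arrays labelled Snail and 4.29 on the vector arrays. The vector values lay below the array medians, so the size of the second rise rests on values that may be background. FURIN, the protease that cleaves the TGF-beta precursor, was lower in spheres (-0.64 ± 0.13), a call lost when the arrays were quantile normalised once more (-0.37, adjusted p = 0.065). LTBP2, a matrix protein of the latent TGF-beta binding family, averaged 7.48 ± 0.21 on the arrays labelled Snail and 9.25 ± 0.00 on the vector arrays, and fell by 1.77 ± 0.19 (adjusted p = 0.00029).

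Of 14 genes known to be induced by TGF-beta, 4 were higher and 1 lower in spheres, and 4 higher and 2 lower on the arrays labelled Snail. CDKN1A, the cell cycle inhibitor p21, was higher in both: 11.18 ± 0.10 log2 in spheres and 8.69 ± 0.13 in parental cells (2.49 ± 0.14, adjusted p = 1.2e-06), and 10.04 ± 0.15 on the arrays labelled Snail and 9.01 ± 0.06 on the vector arrays (1.03 ± 0.14, adjusted p = 0.00093). TGFBI, a secreted matrix protein, averaged 7.57 ± 0.06 in spheres and 9.35 ± 0.28 in parental cells, and fell by 1.78 ± 0.15. KLF11, a TGF-beta induced repressor, was 1.23 ± 0.16 higher on the arrays labelled Snail. Among 8 further BMP targets and ID genes, RUNX2 was lower (-1.53 ± 0.15) and MSX2 higher (1.57 ± 0.17) in spheres, and MSX1 was lower on the arrays labelled Snail (-0.72 ± 0.17). The RUNX2 fall rests on 1 of 6 probe sets, since none of the others was called and their mean with it changed by -0.17 (adjusted p = 0.26), and the MSX1 call was lost with the mean of its 2 probe sets (-0.36), without array 1 labelled Snail (-0.46) or either vector array.

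The E proteins that ID proteins bind were represented by 3 genes. TCF12 was lower in spheres (-1.34 ± 0.14 log2, adjusted p = 5.8e-05) and higher on the arrays labelled Snail (0.84 ± 0.14, adjusted p = 0.0031), but the mean of its 4 probe sets gave -0.52 and 0.31 (adjusted p = 0.12). TCF3 was lower in both by its brightest probe set (-0.62 ± 0.13 and -0.63 ± 0.13), but the mean of its 14 probe sets gave 0.07 in spheres and -0.11 on the arrays labelled Snail, neither called. Both TCF3 calls were also lost without 1 or more single arrays, such as sphere replicate 1 (-0.51).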

How the data were processed

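Gene expression was measured on 8 Affymetrix arrays, 2 for each of 4 groups set by the labels. Per the submitters' processing notes, the authors used RMA to make the deposited log2 values, which give expression for each probe set on each array. The method subtracts background, gives the arrays a common distribution and summarises probes, so a shift shared by most genes may be removed. RMA's version and settings were not given in the sources used here. Probe sets were named through GEO's platform annotation, and the 1801 naming several genes and 11721 unnamed stayed out.

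The 4 group means were estimated from all 8 arrays together with limma 3.58.1 in R 4.3.3 (4 residual and 6.10 prior degrees of freedom). P-values are two-sided and adjusted by Benjamini-Hochberg over 19775 genes, with a threshold of 0.05. With 2 arrays against 2 an exact permutation p cannot go under 0.333, so none was used. Group means are ± SD over 2 arrays and changes are ± SE. The number of arrays limits the precision.

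The members and lists were chosen with earlier results of these data known. Named were all members, SNAI1, SMAD4, up to 2 genes per list and comparison with the lowest adjusted p and no overlap of arrays, and the 3 genes most like SMAD6 and ID1. Alternatives were the mean of a gene's probe sets, single probe sets, a repeated quantile normalisation, median centring, leaving out the dimmest 40% of genes, each line alone, array weights, an intensity trend, a replicate block and leaving out each array. The fit was also run on simulated data with the same mean in every group apart from set changes. That setting holds no line differences and no noisier parental pair, so it is not used as support for the calls.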

Additional observations from a re-analysis of the deposited data

Results flagged for a closer look

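For 7 of the 10 genes the change in HT29 spheres differed from the change on the SW480 arrays labelled Snail by limma's test of the difference itself (adjusted p under 0.05 over all genes). Over all genes 27.5% passed that test, and the members were chosen with earlier results of these data known. The difference, sphere change minus change on the arrays labelled Snail, was 2.85 log2 for TGFB1, -3.68 for TGFB2, -1.62 for SMAD6, 1.00 for SMAD7, -1.00 for ID1, -1.64 for ID2 and 0.74 for INHBA. TGFB1, TGFB2, SMAD6, SMAD7 and ID2 passed under all 15 alternatives that give this difference for the gene value. The sizes were smaller with the mean of each gene's probe sets, at 1.82 for TGFB1, -1.84 for TGFB2 and -0.54 for SMAD6 (adjusted p = 0.039). None of the other 3 SMAD6 probe sets passed for the difference on its own (-0.25, -0.21 and -0.085), nor did 1 of the 5 TGFB2 probe sets (0.33). ID1 passed under 9 of 15 and INHBA under 6 of 14.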

How the results depend on the processing

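Of the members' changes under alternatives other than leaving out an array, 273 kept their side of the threshold (5 uncalled ones with the opposite sign), 13 lost a call and 6 gained one. Leaving out an array gave 291 (8 uncalled ones with the opposite sign), 26 and 3. No called value turned its sign in either. Among single probe sets 27 kept their side of the threshold (7 uncalled ones with the opposite sign) and 16 lost a call. In 5 more a called value turned to an uncalled one of the other sign. These were TGFB2 by the second brightest of its 5 probe sets (0.063 in spheres, -0.27 on the arrays labelled Snail, 0.23 between the control groups and 0.33 for the difference of the changes) and INHBA by the dimmest of its 3 (-0.16 for that difference). With the mean of all probe sets, the ITGB8 difference, uncalled at -0.01 by its brightest probe set, became 0.68 (limma adjusted p = 0.0083). Called falls became uncalled values of the other sign for SMURF1 between the control groups (-0.47 to 0.12). The same held for TCF3 in spheres (-0.62 to 0.074) and between the control groups (-1.41 to 0.10). Median centring left 1 member lower in spheres and gave 25 other pathway genes higher, 16 without it. Its split of calls for the difference was 3057 positive and 2734 negative, 2099 and 3347 without it, with a shift of 0.14 in the median of all genes. Members lower on the arrays labelled Snail were 2 without the dimmest 40% of genes, with each line alone, with array weights and with the intensity trend. Leaving out 1 array gave 1447 to 4087 genes called on the arrays labelled Snail, 1 to 2 members lower in spheres and 1 to 2 lower on the arrays labelled Snail. There, other pathway genes numbered 11 to 19 higher and 5 to 16 lower, against 18 and 15. The replicate block called 6081 genes in spheres, 3065 on the arrays labelled Snail, 8970 between the control groups and 5281 for the difference, and changed no member's call. Same-numbered arrays did not deviate together (correlations -0.057 to 0.061), so the numbers were not taken as pairs. Fits of each line alone give no value between lines. INHBA and ID3 are among the dimmest 40%, as are SMAD4 and INHBB of the other named genes. The cause of these moves was not tested. Values under or near the array medians limit the folds of TGFB2, INHBA, ID3 and SMAD6. Among the other named genes they limit those of ITGB8, SMAD4 and INHBB.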
